A study of Mus musculus with 6 samples.

Results

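Replication-dependent histone genes encode the H1, H2A, H2B, H3 and H4 proteins that package newly copied DNA, and they were followed here in RNA sequencing libraries of mouse gastrocnemius, the large calf muscle. Members were all genes whose GENCODE M21 symbol starts with Hist1h, Hist2h, Hist3h or Hist4h, pseudogenes left out, with at least 10 counts summed over the 6 libraries. Of 49315 genes in the tables, 68 matched the pattern and 56 were members, with 5 of class H1, 14 of H2a, 13 of H2b, 11 of H3 and 13 of H4. A further 11 genes had fewer than 10 counts, 5 of them none, and 1 was a pseudogene. Hist1h2ah and Hist1h2ag lay just inside the minimum, with 12 and 13 summed counts, and Hist1h2al and Hist1h2br just outside it, with 7 and 5. The members stand in 5 blocks of the GRCm38 genome. Chromosome 13 holds 27 at chr13:23531050-23764358 and 18 at chr13:21715763-22043676, chromosome 3 holds 8 at chr3:96219865-96270132, chromosome 11 holds 2 at chr11:58948920-58956830, and Hist4h4 stands alone at chr6:136801553-136804415.

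The series compares 3 libraries labelled WT with 3 labelled mKO, a muscle-specific knockout of Hnrnpu, which encodes a nuclear RNA-binding protein also known as SAF-A. All mice were 3 months old and of a mixed C57BL/6 129 strain. The promoter that drives the recombinase is not given in the sources used here. The labels number the replicates without saying that each came from its own animal, so p-values measure only the spread between these libraries, which may be technical.

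Replication-dependent histone genes are transcribed mainly in S phase, so that histone protein is made while DNA is copied. Most of them have no introns, and most of their mRNAs end in a short stem-loop in place of a poly(A) tail. The stem-loop is bound by SLBP, which acts in 3′ end cleavage together with the U7 particle, in translation, and in the rapid decay of the mRNA when DNA synthesis stops. Nuclei of mature muscle fibres do not copy their DNA, whereas satellite cells, macrophages and other mononuclear cells of muscle can divide. In differentiated cells some of these genes also give polyadenylated transcripts that run past the stem-loop.

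The stem-loop is the element that sets this gene family apart, and it was searched for as a 16-base string that opens with GG, closes with CC and holds CTTTTNA from the fifth base on, with any base elsewhere, on the transcript strand, within 300 bases after the stop codon of GENCODE M21 transcripts. It was found in 37 of the 56 members, inside the counted exons in each case, and in 0.262% of 20983 genes with enough sequence after the stop. For the other 19 members no match was present in their M21 transcripts, and 10 members had no counted base outside the coding sequence. The stem-loops of 10 members described below are printed 5′ to 3′ with the 16 bases of the stem-loop in capitals and 5 bases on each side, to show the forms that go with each class.
Hist1h1c: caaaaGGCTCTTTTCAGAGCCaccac
Hist1h1e: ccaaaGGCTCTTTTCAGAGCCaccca
Hist2h2ac: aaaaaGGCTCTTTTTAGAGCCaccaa
Hist1h2bb: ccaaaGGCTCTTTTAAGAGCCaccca
Hist1h2be: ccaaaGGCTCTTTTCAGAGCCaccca
Hist1h3f: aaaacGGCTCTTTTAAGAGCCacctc
Hist1h4c: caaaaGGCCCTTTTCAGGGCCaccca
Hist1h4d: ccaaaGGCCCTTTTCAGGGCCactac
Hist1h4h: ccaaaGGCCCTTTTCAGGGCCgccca
Hist2h4: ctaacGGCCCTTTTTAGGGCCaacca
The first form, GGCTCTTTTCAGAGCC, stood in 20 members of H1, H2a, H2b and H3. The form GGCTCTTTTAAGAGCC stood in 5 members of H2b and H3, and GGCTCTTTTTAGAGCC in Hist2h2ac alone. Stems that open with GGCCC stood in 9 members, all H4, of which 7 had the loop of Hist1h4c and 2 that of Hist2h4. Hist1h4b and Hist1h4j had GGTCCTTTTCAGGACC.

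Library totals ranged from 32108684 to 42344238 counts, and the members together took 0.0434% to 0.0451% of the counts in WT and 0.0543% to 0.0591% in mKO. Values per library are CPM, counts per 1000000, with library sizes scaled by TMM factors, which correct for composition, and are given in the order of replicates 1, 2 and 3. Adjusted p-values are those of edgeR's quasi-likelihood test, with Benjamini-Hochberg adjustment over the 16650 genes tested, unless another tool is named. Hnrnpu itself had 233, 235 and 247 CPM in WT and 209, 210 and 205 CPM in mKO, a log2 fold change of -0.20 (SE 0.10, adjusted p = 0.147), so its level did not pass the test. Ckm, the muscle creatine kinase, named as a check of the tissue label, was at 25084 to 27382 CPM in WT and 9171 to 10851 CPM in mKO. These are bulk samples, in which fewer cells of a type and less RNA per cell cannot be told apart. Scaling by library totals alone shifted the all-gene median by 0.465 on the log2 scale, and each direction below is relative to the TMM scaling unless library totals are named.

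Of the 56 members, 25 were higher in mKO, 5 were lower, 19 were tested and not called, and 7 were not tested because their counts did not pass the expression filter. Over all genes tested, 18.2% were called higher and 18.9% lower, 37.0% in either direction. A rise of at least 2-fold was called for 21 members, beside 8.77% of all genes. The WT and mKO values of 35 members did not overlap, beside 49.3% of all genes tested. In 30 of the 35 the mKO values were the higher ones, beside 25.3% of all genes tested. Both member counts include 3 untested members. The filter bears on these counts, since 13 of the 49 tested members passed it only through the mKO libraries, among them Hist1h1b, Hist1h2ab, Hist1h2ak, Hist1h2bk, Hist1h2bl and 5 H3 genes that were called higher. Of the 34 members past the expression cutoff in every WT library, 15 were higher and 5 lower, beside 16.5% called higher among all such genes. The median log2 fold change was 1.03 over the tested members and 0.02 over all genes tested. With library totals 36 members were higher and 2 lower, beside 49.0% and 6.75% of all genes on that scaling.

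**Figure D1:**
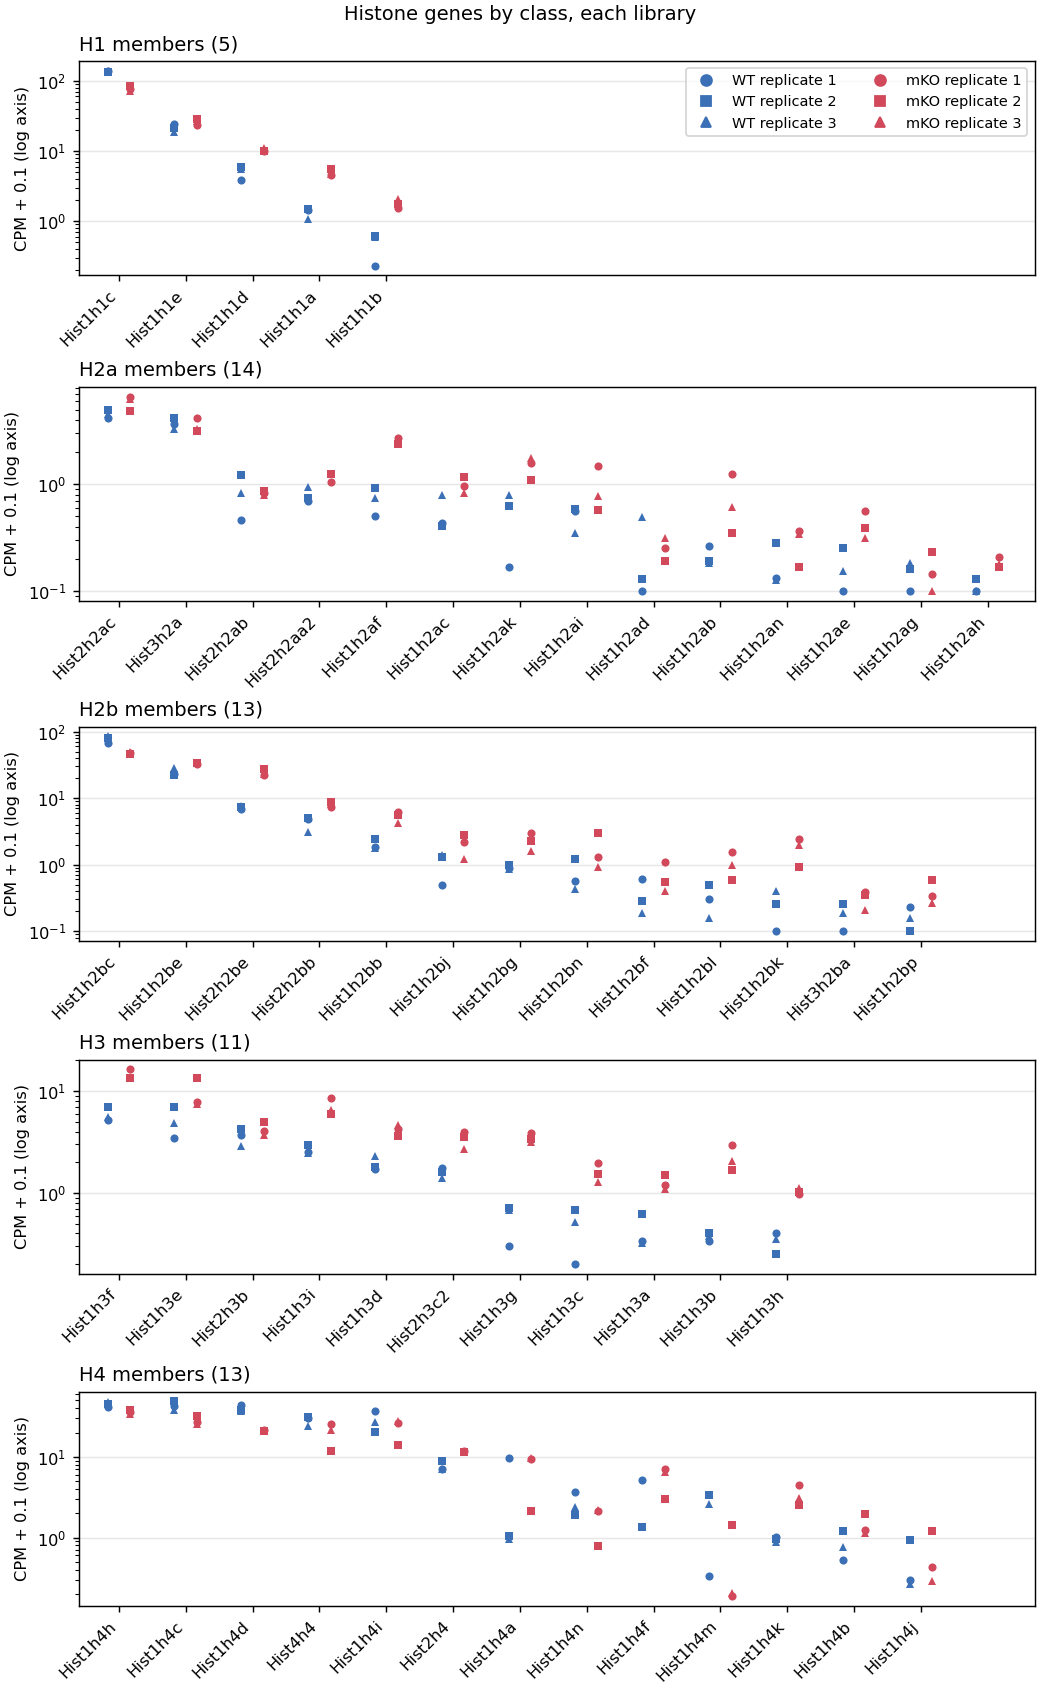
CPM plus 0.1 on a log axis for each of the 56 members, by class and in order of the WT mean; circles, squares and triangles are replicates 1, 2 and 3, blue for WT and red for mKO. In the H3 panel the red points lie above the blue ones for 10 of 11 members, while at the left of the H1, H2b and H4 panels the most abundant members have lower red points.

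H1 proteins bind the linker DNA between nucleosomes, and of their 5 members the most abundant was lower, 3 were higher and 1 was not called. Hist1h1c (chr13:23738808-23740367), the most abundant member, had 139, 135 and 138 CPM in WT and 77.5, 84.5 and 71.8 CPM in mKO. It was 1.76-fold lower, with a log2 fold change of -0.81 (SE 0.11, adjusted p = 9.49e-05), and it stayed lower with library totals at -0.35 (adjusted p = 0.0161). The 3 mKO values all lay below the lowest WT value. Hist1h1e (chr13:23621755-23622502), the second per kilobase, had 24.3, 21.1 and 18.8 CPM in WT and 23.4, 28.7 and 27.0 CPM in mKO. Its log2 fold change was 0.30 (SE 0.13, adjusted p = 0.0858), with groups that overlapped, and it reached the threshold when WT replicate 1 was left out (0.40, adjusted p = 0.0476). The 3 less abundant H1 genes all rose. Hist1h1d had 3.74, 5.85 and 5.53 CPM in WT and 10.02, 10.1 and 10.8 CPM in mKO, a log2 fold change of 1.03 (SE 0.18). Hist1h1a had 1.34, 1.41 and 0.978 CPM in WT and 4.47, 5.52 and 4.53 CPM in mKO, a log2 fold change of 1.97 (SE 0.22). Hist1h1b had 0.134, 0.521 and 0.503 CPM in WT and 1.45, 1.68 and 2.00 CPM in mKO, a log2 fold change of 2.12 (SE 0.42). Their adjusted p-values ranged from 3.25e-05 to 0.00165, and none of the 3 had groups that overlapped.

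H2A proteins pair with H2B to form the outer dimers of the nucleosome core. The 14 H2a members were the least abundant class, with summed CPM of 10.1 to 13.4 in WT, and 3 of them were called, all higher. These 3 are 21.4% of the 14 members, of which 9 were tested, beside 18.2% called higher among all genes tested. Hist1h2ak and Hist1h2ab passed the expression filter only through the mKO libraries. Hist2h2ac (chr3:96220361-96220880), the highest per kilobase, had 4.07, 4.87 and 4.42 CPM in WT and 6.52, 4.71 and 6.12 CPM in mKO, a log2 fold change of 0.38 (SE 0.18, adjusted p = 0.125). Its groups overlapped through mKO replicate 2. Hist1h2af (chr13:23533906-23534304) had 0.401, 0.827 and 0.643 CPM in WT and 2.62, 2.29 and 2.51 CPM in mKO, 3.93-fold higher (log2 fold change 1.97, SE 0.30, adjusted p = 0.000266). Hist1h2ak had 0.0668, 0.521 and 0.699 CPM in WT and 1.5, 0.987 and 1.65 CPM in mKO, a log2 fold change of 1.64 (SE 0.53, adjusted p = 0.0260). Its call was lost without mKO replicate 1 (adjusted p = 0.0709) or mKO replicate 3 (adjusted p = 0.0791). Hist1h2ab had 0.167, 0.0919 and 0.0839 CPM in WT and 1.14, 0.247 and 0.513 CPM in mKO, a log2 fold change of 2.47 (SE 0.67, adjusted p = 0.0112). That call was lost without WT replicate 3 (adjusted p = 0.0537) or mKO replicate 1 (adjusted p = 0.0862), and the highest mKO value was 4.64 times the lowest.

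The other tested H2a members were Hist1h2ac, Hist1h2ai, Hist2h2aa2, Hist2h2ab and Hist3h2a, with log2 fold changes from -0.07 to 1.08 and adjusted p-values from 0.0898 to 0.964. Leaving out WT replicate 3 took Hist1h2ac past the threshold (1.46, adjusted p = 0.0361). The signs of Hist2h2ab (-0.03) and Hist3h2a (-0.07) turned positive with library totals (0.44 and 0.40). The 5 untested H2a members, Hist1h2ad, Hist1h2ae, Hist1h2ag, Hist1h2ah and Hist1h2an, had 12 to 49 counts in all libraries together. Summed WT and mKO counts were 15 and 19 for Hist1h2ad, 7 and 42 for Hist1h2ae, 5 and 8 for Hist1h2ag, and 8 and 24 for Hist1h2an. Hist1h2ah had 1 count over the WT libraries and 11 over the mKO libraries, a ratio of 8.52 per scaled library size with an exact 95% counting interval of 1.24 to 367, which covers counting error only.

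Among the 13 H2b members 7 were higher and 1, the most abundant, was lower. Hist1h2bc (chr13:23684199-23692488) had 68.0, 80.0 and 84.8 CPM in WT and 48.1, 45.7 and 50.01 CPM in mKO, 1.62-fold lower (log2 fold change -0.69, SE 0.11, adjusted p = 0.000487). With library totals its log2 fold change was -0.23 and it was not called (adjusted p = 0.102). Hist2h2be (chr3:96221119-96223738) had 6.74, 7.17 and 7.58 CPM in WT and 22.4, 26.9 and 23.1 CPM in mKO, 3.37-fold higher (log2 fold change 1.75, SE 0.13, adjusted p = 1.3e-06). It had the lowest adjusted p of all called members, and every 50-base window of its counted exons was absent from the transcripts of other genes. Hist1h2be (chr13:23583742-23621124) had 22.8, 22.0 and 28.5 CPM in WT and 32.8, 33.2 and 34.2 CPM in mKO, a log2 fold change of 0.45 (SE 0.12, adjusted p = 0.0112). It was the one member with a WT mean of 10 CPM or more that was called higher.

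The remaining H2b members that rose were at lower levels. Hist2h2bb, second in its class per kilobase (chr3:96269752-96270132), had 4.67, 4.90 and 2.96 CPM in WT and 7.24, 8.50 and 8.12 CPM in mKO, a log2 fold change of 0.93 (SE 0.20). All 381 of its counted bases are also exon of the predicted genes Gm20628 and Gm42743 when strand is ignored. The strand setting of the counting is not given, so how far its reads belong to it alone is not known. Hist1h2bb had 1.74, 2.30 and 1.68 CPM in WT and 6.19, 5.54 and 4.15 CPM in mKO, a log2 fold change of 1.48 (SE 0.22). Hist1h2bg had 0.801, 0.888 and 0.755 CPM in WT and 2.86, 2.18 and 1.51 CPM in mKO, a log2 fold change of 1.42 (SE 0.30). Neither gene had groups that overlapped. Hist1h2bk had 0, 0.153 and 0.307 CPM in WT and 2.36, 0.808 and 1.86 CPM in mKO, and its log2 fold change of 3.36 (SE 0.65, adjusted p = 0.00146) rests on 16 WT counts in all, since it passed the expression filter only through the mKO libraries. Hist1h2bl had 0.200, 0.398 and 0.0559 CPM in WT and 1.45, 0.494 and 0.890 CPM in mKO, a log2 fold change of 2.12 (SE 0.61, adjusted p = 0.0152). Without WT replicate 3 or mKO replicate 1 the call of Hist1h2bl was lost (adjusted p = 0.0600 and 0.0879).

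Hist1h2bj, Hist1h2bn and Hist1h2bf were tested and not called, with log2 fold changes of 1.02, 1.34 and 1.23 and adjusted p-values from 0.0596 to 0.155. Each of them reached the threshold without a single library. For Hist1h2bj this was mKO replicate 3 (adjusted p = 0.0312), for Hist1h2bn WT replicate 2 or mKO replicate 3 (adjusted p = 0.0146 and 0.0293), and for Hist1h2bf WT replicate 1 (adjusted p = 0.0395). Hist1h2bp and Hist3h2ba, with 45 and 36 summed counts, were not tested.

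H3 and H4 form the tetramer at the centre of the nucleosome. Of the 11 H3 members 10 were higher and none was lower. Hist1h3f (chr13:23544465-23545312), the highest per kilobase, had 5.14, 6.80 and 5.39 CPM in WT and 16.2, 13.4 and 13.6 CPM in mKO, 2.49-fold higher (log2 fold change 1.32, SE 0.16, adjusted p = 4.11e-05). Hist1h3i (chr13:21782960-21783370), the second, had 2.40, 2.88 and 2.38 CPM in WT and 8.52, 5.79 and 6.42 CPM in mKO, 2.71-fold higher (log2 fold change 1.44, SE 0.20, adjusted p = 0.000144). Both genes stayed called under each alternative run at the 0.05 threshold.

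The 3 H3 genes with the largest rises among those at low WT levels were Hist1h3b, Hist1h3g and Hist1h3c. Hist1h3b had 0.234, 0.306 and 0.280 CPM in WT and 2.86, 1.57 and 1.94 CPM in mKO, 7.68-fold higher (log2 fold change 2.94, SE 0.37). Hist1h3g had 0.200, 0.613 and 0.587 CPM in WT and 3.79, 3.30 and 3.05 CPM in mKO, 7.10-fold higher (log2 fold change 2.83, SE 0.34). Hist1h3c had 0.1001, 0.582 and 0.419 CPM in WT and 1.85, 1.44 and 1.19 CPM in mKO, 3.99-fold higher (log2 fold change 2.00, SE 0.47). These 3 genes passed the expression filter only through the mKO libraries, as did Hist1h3h and Hist1h3a. Hist1h3h had 0.300, 0.153 and 0.252 CPM in WT and 0.881, 0.920 and 1.03 CPM in mKO, a log2 fold change of 1.99 (SE 0.43). Hist1h3a had 0.234, 0.521 and 0.224 CPM in WT and 1.101, 1.41 and 0.998 CPM in mKO, a log2 fold change of 1.84 (SE 0.42).

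The remaining H3 genes passed the filter in every WT library. Hist1h3d had 1.60, 1.68 and 2.21 CPM in WT and 4.14, 3.54 and 4.59 CPM in mKO, a log2 fold change of 1.15 (SE 0.22). Hist2h3c2 had 1.67, 1.5 and 1.29 CPM in WT and 3.90, 3.46 and 2.62 CPM in mKO, a log2 fold change of 1.17 (SE 0.24). Hist1h3e had 3.37, 6.92 and 4.72 CPM in WT and 7.77, 13.3 and 7.42 CPM in mKO, a log2 fold change of 0.92 (SE 0.27, adjusted p = 0.0173). Replicate 2 was the highest library of Hist1h3e in each group, and the call was lost without WT replicate 1, WT replicate 3 or mKO replicate 2 (adjusted p = 0.0577, 0.0662 and 0.0932). Adjusted p-values of the 10 called H3 members ran from 4.11e-05 to 0.0173. Hist2h3b was the member not called, with a mean of 3.49 ± 0.659 CPM in WT and 4.14 ± 0.667 CPM in mKO (SD, n = 3 each) and a log2 fold change of 0.25 (adjusted p = 0.380). All of its counted bases are also exon of Gm20628 when strand is ignored.

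Of the 13 H4 members, all tested, 2 were higher, 3 lower and 8 not called. The 15.4% called higher is near the 18.2% of all genes tested, of which 18.9% were lower. The 3 that fell were also the 3 highest per kilobase in WT. Hist1h4c (chr13:23698060-23698454) had 42.9, 48.6 and 38.0 CPM in WT and 26.7, 31.9 and 25.7 CPM in mKO, 1.54-fold lower (log2 fold change -0.62, SE 0.13, adjusted p = 0.00210). Hist1h4d (chr13:23581598-23581990) had 43.5, 38.4 and 37.4 CPM in WT and 21.6, 20.6 and 20.6 CPM in mKO, 1.90-fold lower (log2 fold change -0.92, SE 0.11, adjusted p = 3.75e-05). Hist1h4h (chr13:23531050-23531522) had 41.6, 45.6 and 47.1 CPM in WT and 35.7, 38.1 and 33.9 CPM in mKO, 1.25-fold lower (log2 fold change -0.32, SE 0.11, adjusted p = 0.0319). None of these 3 genes had groups that overlapped. Hist1h4d stayed lower with library totals (-0.46, adjusted p = 0.00399), Hist1h4c lost its call (-0.15, adjusted p = 0.322), and Hist1h4h turned positive (0.15, adjusted p = 0.259). Hist1h4h also lost its call without WT replicate 3, mKO replicate 1 or mKO replicate 3 (adjusted p = 0.0903, 0.0741 and 0.147).

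Hist1h4k and Hist2h4 rose. Hist1h4k (chr13:21750194-21750505) had 0.901, 0.858 and 0.783 CPM in WT and 4.43, 2.40 and 3.02 CPM in mKO, 3.87-fold higher (log2 fold change 1.95, SE 0.28, adjusted p = 0.000190). Hist2h4 (chr3:96261682-96263311) had 7.01, 8.70 and 7.07 CPM in WT and 11.8, 11.4 and 11.5 CPM in mKO, 1.52-fold higher (log2 fold change 0.61, SE 0.14, adjusted p = 0.00481). Of its 50-base windows 99.0% were absent from other genes' transcripts. Hist4h4, which has 2863 counted bases and was picked after its values were seen, had 29.9, 31.5 and 23.9 CPM in WT and 25.1, 11.7 and 21.3 CPM in mKO, with a log2 fold change of -0.55 (SE 0.22, adjusted p = 0.0662). It was called lower by DESeq2 (adjusted p = 0.0308), by limma-voom (adjusted p = 0.0474) and without mKO replicate 1 (adjusted p = 0.0211). Hist1h4b and Hist1h4j, with log2 fold changes of 0.85 and 0.45, were not called (adjusted p = 0.110 and 0.657). Without WT replicate 2 Hist1h4b was called higher (1.25, adjusted p = 0.0364).

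In 5 H4 genes, chosen after their values were seen, the range within the WT group was larger than the difference of the group means. The same held for Hist1h4b and Hist1h4j, which are described above. Hist1h4a had 9.45, 0.950 and 0.867 CPM in WT and 9.31, 2.02 and 9.63 CPM in mKO. Hist1h4f had 5.11, 1.26 and 1.26 CPM in WT and 6.94, 2.92 and 6.47 CPM in mKO. Hist1h4i had 36.7, 19.97 and 26.8 CPM in WT and 26.2, 14.0 and 27.7 CPM in mKO. For Hist1h4a and Hist1h4f the high libraries were WT replicate 1 and mKO replicates 1 and 3. Hist1h4m had the reverse order, with 0.234, 3.25 and 2.49 CPM in WT and 0.0881, 1.32 and 0.108 CPM in mKO. Hist1h4n had 3.60, 1.81 and 2.26 CPM in WT and 2.05, 0.696 and 2.10 CPM in mKO.

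None of the 5 was called, and their log2 fold changes ran from -1.95 to 1.11 with adjusted p-values from 0.0838 to 0.364. A single library decided several of them. Without WT replicate 1 the log2 fold change was 2.93 for Hist1h4a (adjusted p = 0.00144), 2.10 for Hist1h4f (adjusted p = 0.000677) and -2.47 for Hist1h4m (adjusted p = 0.0170). Without mKO replicate 2 it was 1.42 for Hist1h4f (adjusted p = 0.0358) and -4.31 for Hist1h4m (adjusted p = 0.00446). Hist1h4m and Hist1h4n have identical coding sequences, and reads from them can be exchanged in counting. Their sum, also looked at after the values were seen, was 3.84, 5.05 and 4.75 CPM in WT and 2.14, 2.02 and 2.21 CPM in mKO, and it was not tested. The sum varied by far less within a group than either gene did, and its mKO mean was 0.467 times the WT mean. The labels give a mixed strain background with no further detail per mouse, and its part in these library differences was not tested.

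**Figure D2:**
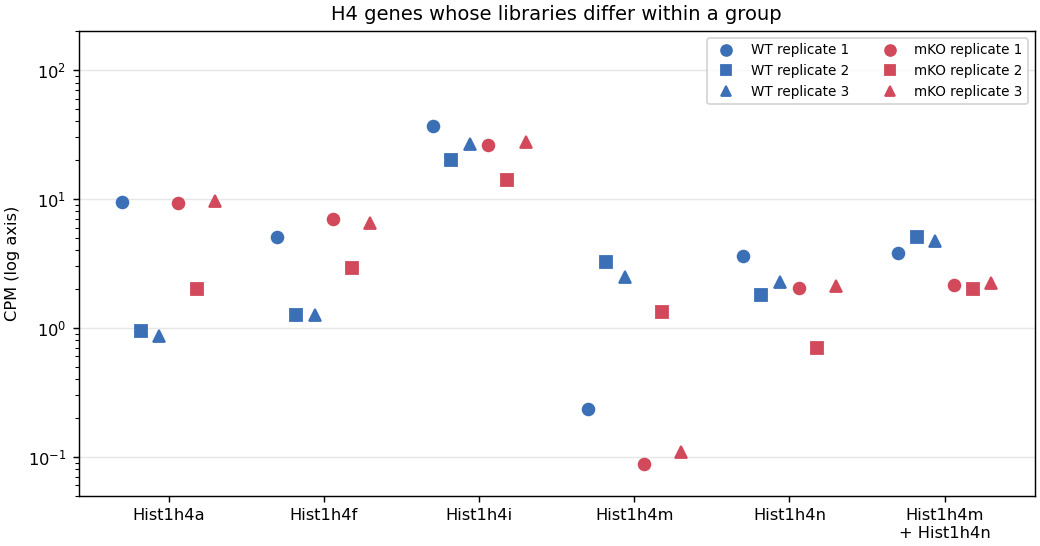
CPM on a log axis of 5 H4 genes and of the sum of Hist1h4m and Hist1h4n in each library; circles, squares and triangles are replicates 1, 2 and 3, blue for WT and red for mKO. Hist1h4a lies between 9.31 and 9.63 CPM in WT replicate 1 and in mKO replicates 1 and 3 and between 0.867 and 2.02 CPM in the other libraries, and Hist1h4m is low where Hist1h4a is high.

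Because a few genes dominate some classes, the CPM of all members of a class were summed, with no test. The H1 sum was 165 ± 2.80 in WT and 121 ± 8.09 in mKO (SD, n = 3 each), 0.734 times the WT value on the TMM scaling, while with library totals the difference in mean log2 was 0.02. Hist1h1c made up 83.0% of the H1 sum in WT and 64.3% in mKO, and the other 4 genes together were 1.54 times the WT level. The H4 sum was 204 ± 16.4 in WT and 158 ± 16.3 in mKO, 0.774 times the WT value, and here too the sign turned with library totals (0.09 in log2). Leaving out its top member, Hist1h4h, gave 0.766 for H4, so the lower sum did not rest on that gene. The same was not done for Hist1h4c or Hist1h4d. The H3 sum was 21.8 ± 3.79 in WT and 51.5 ± 4.42 in mKO, 2.36 times the WT value, the largest ratio of the 5 classes, and its libraries did not overlap.

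The H2b sum was 119 ± 11.2 in WT and 128 ± 1.89 in mKO, a ratio of 1.08. Hist1h2bc made up 65.5% of it in WT and 37.4% in mKO, and the other 12 H2b genes together were 1.96 times the WT level. The H2a sum was 11.9 ± 1.68 in WT and 18.1 ± 2.71 in mKO, a ratio of 1.52. Of the 14 H2a genes 1, Hist3h2a, has at least 50% of its 50-base windows unique, and the difference in mean log2 was 0.61 for the class and -0.08 for that gene alone. Over all 56 members the sum was 522 ± 7.07 in WT and 477 ± 13.2 in mKO, 91.4% of the WT value on the TMM scaling, whereas the share of raw counts was higher in each mKO library than in any WT library.

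**Figure D3:**
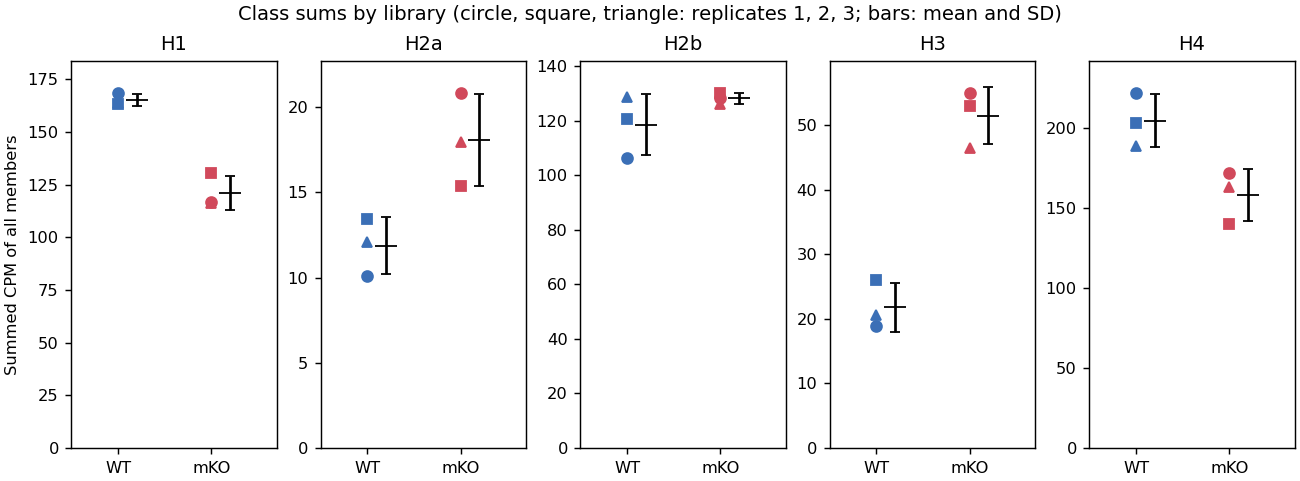
Summed CPM of all members of each class by library, on axes that start at 0; circles, squares and triangles are replicates 1, 2 and 3, and bars give the mean and SD of 3 libraries. The H3 sums are higher in every mKO library and the H1 and H4 sums lower, although with library totals the H1 and H4 differences take the opposite sign.

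Among the members the direction of the calls went with the level in WT. Of the 9 members with a WT mean of at least 10 CPM, a split chosen after the values were seen, 1 was higher, 5 were lower and 3 were not called, with a median log2 fold change of -0.55. Of the 47 members below 10 CPM, 24 were higher and none was lower, and the median of the 40 tested ones was 1.20. Genes low in WT need a rise to pass the expression filter, and the same WT values enter both the split and the fold change. Shares of all genes on either side of 10 CPM are not given, so this contrast is a description only and not a trait of histone genes. Within the class H2b the 3 most abundant members were Hist1h2bc, which was lower, and Hist1h2be and Hist2h2be, which were higher. The 5 called-lower members all stand in the block at chr13:23531050-23764358, where 14 of the 25 tested members were higher. The block at chr13:21715763-22043676 had 7 higher of 14 tested and the one on chromosome 3 had 4 higher of 8, with none lower in either.

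**Figure D4:**
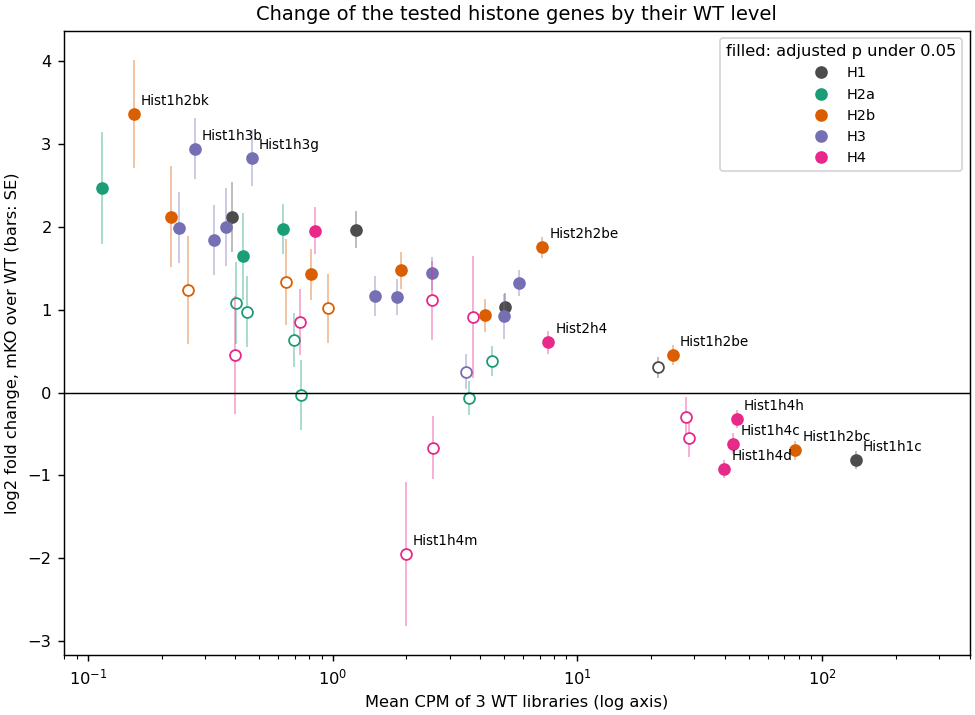
log2 fold change of mKO over WT with its SE against the mean CPM of 3 WT libraries (log axis) for the 49 tested members, coloured by class; filled points have an adjusted p under 0.05. The 5 filled points under 0 all lie above 10 CPM on the TMM scaling (Hist1h4h turns positive with library totals), and Hist1h2be is the only filled point above 0 there.

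Histone genes of a class are near copies, which limits how far reads can be assigned. Median identity of coding sequences between members was 96.4% in H2a, 94.5% in H2b, 97.6% in H3 and 93.9% in H4. At least 50% of the 50-base windows were absent from other genes' transcripts in 21 members, of which 8 were higher and 4 lower. The 35 members under that share had 17 higher and 1 lower, and Hist2h2aa2, Hist2h2bb and Hist2h3b had no unique window. Counted bases were shared with exons of other genes in 18 members. Strand was ignored both for these overlaps and for the windows. In H2a most of the overlapping genes are predicted genes such as Gm44297, which shares 141 of the 399 counted bases of Hist1h2af. How the counting treated multi-mapping reads is not given in the labels.

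Calls were also counted by stem-loop, as a description. Of the 37 with a stem-loop match, 14 were higher and 4 lower, with a median log2 fold change of 0.88 over the 32 tested. Of the 19 with no match in their M21 transcripts, 11 were higher and 1 lower, with a median of 1.64 over the 17 tested. The 10 members with no counted base outside the coding sequence are all among these 19. A missing match therefore does not mean that a gene lacks the stem-loop. Among 11 members with more than 200 counted bases beyond the stem-loop, which a transcript cut at the stem-loop would not cover, 5 were higher and 1 lower. Hist1h1c has 840 such bases, Hist1h2be 1789 and Hist2h4 1257. Hist1h4d, which fell, has 25 of them, and Hist1h3f, which rose, has 365.

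Promoters were described because the members of a class share them in part and several pairs are divergent. RefSeq windows (GRCm38.p6) from 250 bases before to 50 after the start were matched for 51 members, giving 52 windows beside 32851 in the table. The TATA box letters TATAAA, on either strand, stood in 61.5% of the members' windows and 13.6% of all windows. The letters CCAAT stood in 82.7% against 37.4%, in every window of H1, H2a, H2b and H3 and in 3 of 12 of H4. The octamer ATTTGCAT, the letters of an OCT1 site, stood in 21.2% against 1.74%, in 6 of 14 H2a and 5 of 12 H2b windows and in no other class. H2a and H2b windows of divergent pairs overlap, so their matches are partly the same bases. The 150 bases before the start of 4 members are printed 5′ to 3′ with these motifs in capitals on either strand (ATTGG is CCAAT read from the other strand), to show 2 genes that fell and 2 that rose. They lie on the plus strand at chr13:23738657-23738806, chr13:23746584-23746733, chr13:23752195-23752344 and chr13:23581418-23581567.
Hist1h1c: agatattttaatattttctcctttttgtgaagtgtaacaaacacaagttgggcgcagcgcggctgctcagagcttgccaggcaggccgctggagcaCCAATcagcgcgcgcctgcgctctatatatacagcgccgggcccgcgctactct
Hist1h2bb: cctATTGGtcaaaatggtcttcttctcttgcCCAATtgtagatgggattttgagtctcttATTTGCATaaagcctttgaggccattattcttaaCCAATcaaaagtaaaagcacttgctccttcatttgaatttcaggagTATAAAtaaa
Hist1h3b: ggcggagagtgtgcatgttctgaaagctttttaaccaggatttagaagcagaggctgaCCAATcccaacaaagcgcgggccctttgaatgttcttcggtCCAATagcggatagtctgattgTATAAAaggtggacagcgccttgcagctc
Hist1h4d: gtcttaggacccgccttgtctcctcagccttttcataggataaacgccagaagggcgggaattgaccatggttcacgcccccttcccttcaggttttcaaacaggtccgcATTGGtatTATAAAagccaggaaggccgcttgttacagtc
Hist1h1c and Hist1h4d were lower in mKO and Hist1h2bb and Hist1h3b higher, and a CCAAT match is present in all 4. A match describes letters only, and binding was not measured.

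Genes that act on histone mRNA were called in both directions. Of 29 tested genes of 3′ end processing and decay 7 were higher and 3 lower, with a median log2 fold change of 0.16 (20 higher and 1 lower with library totals). Over all genes tested 18.2% were called higher and 18.9% lower, 37.0% in either direction, and with library totals 49.0% higher and 6.75% lower. The stem-loop binding protein Slbp, named outside the rule because of its role, had 6.81, 9.83 and 8.61 CPM in WT and 7.02, 6.93 and 8.12 CPM in mKO (log2 fold change -0.20, adjusted p = 0.385). Npat, the activator of histone gene transcription and likewise named for its role, was at 19.4 to 20.7 CPM in WT and 20.7 to 21.3 CPM in mKO (adjusted p = 0.752). Mif4gd, a partner of SLBP in translation, had 19.2, 27.0 and 19.6 CPM in WT and 9.58, 8.26 and 8.82 CPM in mKO, a log2 fold change of -1.30 (adjusted p = 3.96e-05). Tut4, which adds uridines to RNA ends, was lower by a log2 fold change of -0.52 (adjusted p = 0.00195). Upf1, a helicase of histone mRNA decay, and Dis3l2, an exonuclease of uridylated RNA, were higher with log2 fold changes of 0.60 and 0.54 (adjusted p = 0.00259 and 0.00276).

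Histone genes listed as replication-independent were called in both directions, and the 3′ ends of their mRNAs were not examined. Of 10 tested 2 were higher and 4 lower, beside 18.2% and 18.9% of all genes tested, with a median log2 fold change of 0.05. With library totals 5 were higher and none lower, beside 49.0% and 6.75% of all genes. H2afy, encoding macroH2A1, fell from 34.8, 44.7 and 35.6 CPM to 21.5, 24.7 and 21.04 CPM (log2 fold change -0.78, adjusted p = 0.000436). H2afv, encoding an H2A.Z protein, had a log2 fold change of -0.57 (adjusted p = 0.00149). H2afx, whose protein is phosphorylated at DNA breaks, rose from 0.401, 0.735 and 0.559 CPM to 1.67, 1.48 and 1.54 CPM (log2 fold change 1.46, adjusted p = 0.00373), and H2afj had a log2 fold change of 0.72 (adjusted p = 0.00404).

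Of 24 tested histone chaperone and import genes 8 were higher and 3 lower, beside 18.2% and 18.9% of all genes tested, with a median of 0.26. With library totals 19 were higher and 1 lower, beside 49.0% and 6.75% of all genes, and without mKO replicate 3 the counts were 3 and 3. The 3 lower ones on the TMM scaling with all libraries were Nap1l4 (log2 fold change -0.82), a nucleosome assembly protein, Anp32e (-0.62), a chaperone of H2A.Z, and Rbbp7 (-0.63), a histone-binding subunit of several complexes. Chaf1b, a subunit of the CAF-1 complex that deposits H3 and H4 behind the replication fork, had 0.134, 0.0613 and 0 CPM in WT and 0.528, 0.449 and 0.567 CPM in mKO (log2 fold change 2.99, adjusted p = 0.00491). It passed the expression filter only through the mKO libraries, so this fold change rests on few WT counts.

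Most of the calls among cell cycle genes were higher in mKO. Of 39 tested genes of S phase and DNA replication 18 were higher and 5 lower, beside 18.2% and 18.9% of all genes tested, with a median log2 fold change of 0.68. E2f2, a transcription factor of S phase entry, rose from 2.17, 1.32 and 1.20 CPM to 14.9, 19.2 and 14.1 CPM (log2 fold change 3.37, adjusted p = 5.4e-07). Cyclin A2 (Ccna2) and Dtl, a substrate receptor of a replication-coupled ubiquitin ligase, had log2 fold changes of 3.02 and 4.93 (adjusted p = 8.03e-06 and 3.29e-05). Cyclin E2 (Ccne2) went the other way, from 19.9, 17.3 and 21.1 CPM to 8.76, 8.53 and 10.01 CPM (log2 fold change -1.10, adjusted p = 4.92e-05). Of 20 tested genes of G2 and mitosis 16 were higher and 1, the mitotic kinase Aurka (-1.84, named after its value was seen), lower, with a median of 2.57. The 20 genes together summed to 25.2 to 26.6 CPM in WT and 69.9 to 86.0 CPM in mKO. Genes low in WT need a rise to pass the expression filter. How many genes of these cell cycle lists passed it only through the mKO libraries is not given here. Mki67, which marks cycling cells, had 2.77, 3.46 and 2.29 CPM in WT and 21.6, 20.5 and 20.4 CPM in mKO (log2 fold change 2.87, adjusted p = 1.89e-07), and Cenpf, Top2a and Prc1 had log2 fold changes of 3.26, 2.84 and 2.67. The part of this in the histone calls was not tested.

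A list named RNAs without a poly(A) tail was looked at because the step that enriched the RNA is not given in the labels. Whether each listed RNA, Malat1 and Neat1 among them, lacks a tail in these libraries was not examined. Rn7sk, a small nuclear RNA that ends without a tail, named here for its abundance after its values were seen, was at 17349 to 21940 CPM in all 6 libraries. Of the 10 tested RNAs on the list none was higher and 2 lower, beside 18.2% and 18.9% of all genes tested, with a median log2 fold change of -0.37. With library totals 4 were higher and none lower, beside 49.0% and 6.75% of all genes. Malat1 fell from 6953, 8961 and 8896 CPM to 5243, 5863 and 5754 CPM (log2 fold change -0.56, adjusted p = 0.00452), and the Y RNA Rny1 had a log2 fold change of -0.85 (adjusted p = 0.0131). Only 1 of these 2 calls was left without WT replicate 1 or without mKO replicate 3. Neat1 (0.29) and Rny3 (-0.87) were not called (adjusted p = 0.0708 and 0.0927).

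**Figure D5:**
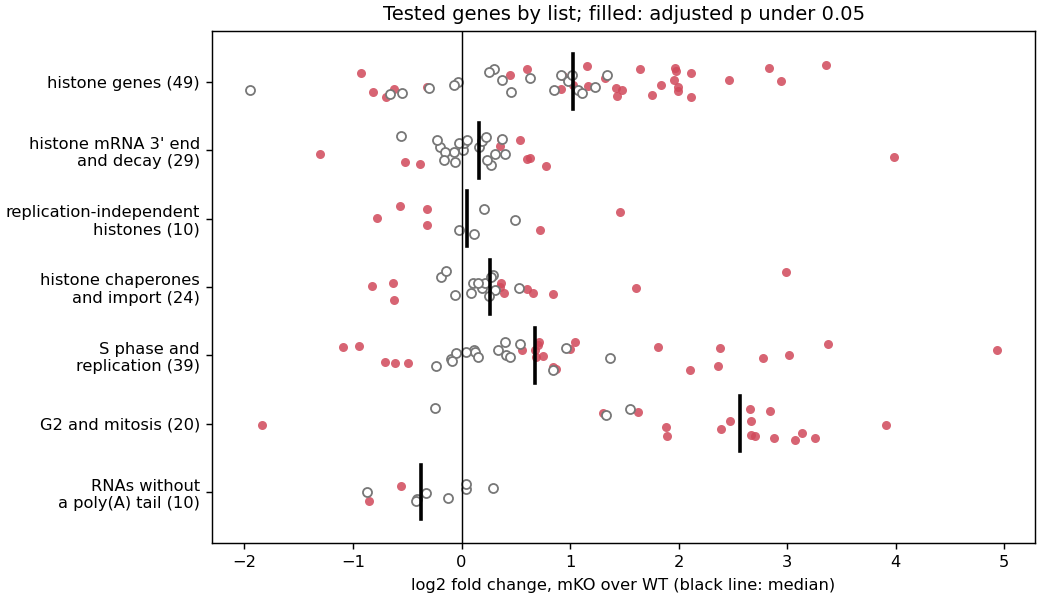
log2 fold change of mKO over WT for the tested genes of each list, with the number tested in brackets; filled red points have an adjusted p under 0.05, open points do not, and black lines are medians. The medians run from -0.37 for RNAs without a poly(A) tail to 2.57 for G2 and mitosis, with the histone genes at 1.03; on library totals the calls of the lists turn mostly higher.

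Markers of other cell types moved with the groups as well. All 10 macrophage markers were higher, and their summed level was 295 to 358 CPM in WT and 656 to 1095 CPM in mKO. Of 6 satellite cell and myoblast markers 4 were higher, with sums of 27.6 to 32.8 CPM and 57.7 to 77.3 CPM, and of 7 fibroblast markers 2 were higher, with sums of 1703 to 1858 CPM and 2132 to 2411 CPM. All 6 endothelial markers were lower (225 to 299 CPM in WT and 142 to 157 CPM in mKO), as were 6 of 8 markers of the mature fibre (279110 to 297573 CPM and 173022 to 204850 CPM). Smooth muscle markers had 1 higher and 2 lower of 5 (631 to 702 CPM and 321 to 361 CPM), and Schwann cell markers had none called of 5 (43.0 to 49.97 CPM and 31.7 to 72.1 CPM). Blood markers were low, with erythroid and bone marrow sums of 14.0 to 18.3 CPM in WT and 3.19 to 6.54 CPM in mKO (2 of 3 tested lower). The T and B cell sums were 0.501 to 0.613 CPM and 0.808 to 1.12 CPM (1 tested, higher). Testis germ cell markers, checked because some histone genes are used in that tissue, had no call and sums of 0.922 to 1.10 CPM and 0.808 to 1.48 CPM, with Prm1, Tnp1 and Acrv1 at 0 in all libraries. The part of any of these cell types in the histone values was not tested.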

How the data were processed

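RNA from gastrocnemius of 3 WT and 3 mKO samples was sequenced by the authors after Trizol extraction with a NEBNext Ultra RNA kit, per the labels' protocols. They deposited 1 table of unnormalized counts per library, summed over each gene's exons, per the file headers. The submitters' processing notes name the build GRCm38 and, with no role or order, featureCounts (Subread 1.5.2), STAR 2.5.2b and Trimmomatic 0.36. Strand setting and multi-mapping treatment are not given.

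Counts were tested with edgeR 4.0.16 in R 4.3.3 (TMM factors, expression filter by group, quasi-likelihood test with group as the only term, adjusted p threshold 0.05), in steps tested on simulated data. CPM uses the scaled library size. Members and lists were chosen with earlier results of these data known. Library by library, values are given for called members and for the 2 members of each class highest in CPM per kilobase, and for those said to be picked later. Up to 4 genes of lowest p were named per list. Stem-loops, exon overlaps and window uniqueness came from GENCODE M21 transcripts, which stand in for the genome planned for the uniqueness check. Of the listed genes, Zcchc6 and Zcchc11 were matched as Tut7 and Tut4. No library was a copy of another (chi-square per degree of freedom 20.9 to 57.7 within groups). Library totals of at least 32108684 counts leave counting error mainly for members under 1 CPM. Alternatives were DESeq2 1.42.0, limma-voom (limma 3.58.1), RLE factors, library totals, other filters, an adjusted p of 0.01, a replicate block and leaving out each library.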

Additional observations from a re-analysis of the deposited data

Results flagged for a closer look

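The pseudogene Hist3h2bb-ps is outside the member rule, and its counts were looked at apart from it. It had 6, 6 and 7 counts in the WT libraries and 35, 58 and 17 counts in the mKO libraries, 110 in mKO together. Its log2 fold change was 2.12 with an adjusted p of 0.00537 in edgeR's quasi-likelihood test. Like several members, it passed the expression filter only through the mKO libraries.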

How the results depend on the processing

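Of the 25 members called higher, 21 stayed called under each alternative at the 0.05 threshold that tested them, and 2 of these, Hist1h3a and Hist1h3h, were not tested at a mean CPM of at least 1. Leaving out each library gave 22 to 29 members higher and 4 to 6 lower, 2350 to 3065 genes higher and 2416 to 3190 lower. Library totals gave 8151 genes higher and 1124 lower, 2 members lower, 21 called genes of 3′ end processing and decay, 20 chaperone genes and 4 RNAs without a poly(A) tail. With library totals all genes called were 87.9% higher against 49.0% with TMM, and the called members 94.7% against 83.3%. The class sums on library totals differed in mean log2 by 0.016 (H1), 1.07 (H2a), 0.58 (H2b), 1.71 (H3) and 0.0931 (H4), and leaving out each library on the TMM scaling gave -0.50 to -0.41, 0.49 to 0.72, 0.04 to 0.17, 1.14 to 1.38 and -0.43 to -0.28. Members with at least 50% unique windows gave 8 higher, and values of -0.0762 for H2a, which is then Hist3h2a alone, 1.94 for H3, which is Hist1h3a alone, and 0.92 for the 5 H2b members left, Hist1h2bc being out at 49.1% unique. At an adjusted p of 0.01 there were 1867 genes higher, 6 chaperone genes and 1 RNA without a tail. Without the low-count filter 5 RNAs without a tail were called, and at a mean CPM of at least 1 there were 11 of G2 and mitosis, because fewer were tested. Leaving out each library gave 6 to 10 chaperone genes and 1 to 3 RNAs without a tail.

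Signs turned only for small or uncalled changes. With library totals the log2 fold change was 0.44 for Hist2h2ab, 0.40 for Hist3h2a, 0.15 for Hist1h4h and 0.16 for Hist1h4i, and for Hist2h2ab it was 0.0885 with limma-voom and 0.0643 with the replicate block. Leaving out each library gave -0.35 to 0.40 for Hist2h2ab, -0.215 to 0.025 for Hist3h2a and -0.59 to 1.55 for Hist1h4j. The cause of these changes was not tested.

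The replicate number as a block gave 27 members higher and 5 lower, and Hist1h4h was no longer called (adjusted p = 0.0565), while Hist1h2bn (0.0116), Hist1h4f (0.0162) and Hist1h4m (0.0169) were. Libraries of the same number correlated at -0.028, -0.028 and 0.054 in their deviations from the group means. This correlation is taken over all tested genes, so it cannot decide whether some genes vary with the number. What the number stands for is not given in the labels. Window uniqueness was computed against transcripts, and the comparison with the whole genome was not run. Depth limits members under 1 CPM, where a library holds few counts.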
